A study of Drosophila melanogaster with 8 samples.

Results

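Myc and 9 nucleolar genes of ribosome production (Polr1A, Tif-IA, Fib, Nop56, Nop60B, Nopp140, pit, Ns1 and ppan) were followed through 8 RNA-seq libraries of whole Drosophila wing imaginal discs, the larval sacs that form the adult wing and thorax. The 10 genes were taken by name from the 17559 gene IDs of each count table, and all 10 were among the 9255 genes that passed the filter on low counts over the 8 libraries. Their reads ranged from 1320 (ppan in CRISPR 1) to 23939 (Nop60B in wt 1) per library. Discs came from wandering larvae raised at 29 °C, about 5 days after egg laying, and each disc holds epithelium together with the adult muscle precursors. The 4 control libraries, wt 1 to wt 4, came from the line 1151 crossed to w1118, and 4 libraries, CRISPR 1 to CRISPR 4, carried 1151>AntpCRISPR, in which that driver directs CRISPR against Antp, a Hox gene. The stated purpose was to learn what Antp regulates in the muscle precursors, so any change confined to those cells is mixed here with all other cells of the disc. Both groups carry 1151, but the control carries no CRISPR transgene, so transgene and background cannot be told apart from loss of Antp. According to the labels the submitters analysed 4 of the libraries (wt 2, wt 3, CRISPR 1 and CRISPR 2), called the used libraries below, and left the other 4 out.

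As background, Myc is the single fly member of the Myc family of transcription factors. It pairs with Max and drives the growth of cells, in the wing disc among other tissues, largely by raising the genes that make ribosomes, while Mnt pairs with Max to oppose it. Ribosome production starts in the nucleolus, where RNA polymerase I copies the ribosomal DNA. Small nucleolar ribonucleoproteins (snoRNPs) then guide methylation and pseudouridylation of the precursor RNA, and assembly factors build the large and small subunits around it.

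Genotype was not the only difference between the libraries. Depth was 35076546 (CRISPR 1) to 47980221 (wt 2) gene reads. All 19 matched markers of disc epithelium were detected in each library, summing to 3591 to 4275 CPM (gene reads relative to library size after TMM scaling), as were all 10 markers of muscle precursors (1300 to 2228 CPM). The gene vg is on both lists, so the muscle precursor sum does not measure those cells alone. The 10 digestive enzyme genes listed for the larval gut summed to 1992, 2008 and 1079 CPM in wt 2, wt 3 and CRISPR 3 and to at most 7.90 CPM in the other 5, with Jon44E at 0 reads in all 8. The libraries wt 2 and wt 3 were close to each other, with a robust SD of log2 ratios of 0.056, against 0.039 from counting alone and at least 0.142 in any other pair. Since the labels do not tie the libraries to separate animals or cultures, p-values measure only the spread between libraries, which may be technical. The level of Antp was 121 to 195 CPM among the wt libraries and 145 to 211 CPM among the CRISPR ones, and since a cut gene can still be transcribed this is no check of the labels.

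The gene Myc lies on chromosome X (FBgn0262656, 3373159 to 3391697, plus strand, dm6). Its level was 460.0, 399, 394 and 334 CPM in wt 1 to wt 4 and 402, 446, 353 and 366 CPM in CRISPR 1 through CRISPR 4. The lowest library was wt 4 and the highest wt 1, with both groups overlapping between them. The wt mean was 397 ± 51.3 CPM and the CRISPR mean 392 ± 41.8 CPM (SD, n = 4 each). A two-sided exact permutation test of log2 CPM over 35 splits gave a difference of -0.015 and p = 0.914, where the smallest p this design allows is 0.0286. The Myc level thus differed between genotypes by less than the spread between libraries. Exons of 2 other genes overlap those of Myc, CG12535 on the opposite strand with 21 to 53 reads per library and lncRNA:CR44999 on the same strand with 5 to 17, few beside the 12877 to 19845 reads of Myc.

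Polr1A and Tif-IA serve RNA polymerase I. Polr1A (FBgn0019938, 2R 14595611 to 14601216, minus strand) encodes the largest subunit of the enzyme and varied most of the 10 genes, 2.09-fold between its highest and lowest library. Its level was 278, 162, 157 and 133 CPM in wt 1 to wt 4 and 217, 214, 151 and 139.7 CPM in CRISPR 1 through CRISPR 4. The lowest library of each genotype was number 4, and the CRISPR values lay within the range of wt. Tif-IA (FBgn0032988, 2L 22249876 to 22258260, plus strand), the initiation factor that brings the polymerase to the ribosomal DNA promoter, was at 187, 122, 114 and 166 CPM in wt 1 to wt 4 and at 163, 156, 129 and 162 CPM in CRISPR 1 through CRISPR 4. Here wt 2 and wt 3 were the lowest libraries, and number 4 was among the higher ones. CG12869, which shares exonic sequence with Polr1A on the opposite strand, had 3 to 29 reads per library.

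Fib, Nop56, Nop60B and Nopp140 belong to the snoRNPs or serve them. Fib (FBgn0003062, 2R 23072909 to 23074725, minus strand) encodes fibrillarin, the methyltransferase of the box C/D particles, and was at 308, 235, 242 and 234 CPM in wt 1 to wt 4 and 256, 297, 245 and 251 CPM in CRISPR 1 through CRISPR 4. It varied least, 1.31-fold, with wt 1 and CRISPR 2 above the other 6 libraries. Nop56 (FBgn0038964, 3R 22419095 to 22421068, minus strand), a core protein of the same particles, was at 443, 265, 278 and 388 CPM in wt 1 to wt 4 and 324, 346, 281 and 372 CPM in CRISPR 1 through CRISPR 4. Its order followed Tif-IA more than Fib, with the 4 CRISPR values inside the range of the wt values.

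Nop60B (FBgn0259937, 2R 24174877 to 24186343, plus strand) encodes the pseudouridine synthase of the box H/ACA particles. Its level was 597, 396, 403 and 442 CPM in wt 1 to wt 4 and 446, 537, 395 and 469.7 CPM in CRISPR 1 through CRISPR 4. Nopp140 (FBgn0037137, 3L 21832774 to 21836685, plus strand), a phosphoprotein that attends the snoRNPs in the nucleolus and Cajal bodies, was at 462, 274, 264 and 306 CPM in wt 1 to wt 4 and 326, 359, 311 and 308 CPM in CRISPR 1 through CRISPR 4. For both genes wt 1 was highest and CRISPR 2 next. Nop60B shares exonic sequence with 7 annotated features, 6 of them snoRNA genes, and Nopp140 with P5CDh1 on the opposite strand (4435 to 6866 reads), so reads on the shared stretches could not be told apart here.

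The remaining 3 genes act in making the large subunit. The DEAD-box RNA helicase gene pit (FBgn0266581, 3R 22034298 to 22038925, plus strand) was at 193, 121, 123 and 151 CPM in wt 1 to wt 4 and 141, 175, 147 and 166 CPM in CRISPR 1 through CRISPR 4. Ns1 (FBgn0038473, 3R 17070523 to 17072675, minus strand) encodes nucleostemin 1, a nucleolar GTPase, and was at 169.9, 109.8, 106 and 151 CPM in wt 1 to wt 4 and 141, 138, 120.0 and 164 CPM in CRISPR 1 through CRISPR 4. In both, wt 1 was highest and wt 2 and wt 3 were the lowest, with both groups overlapping. The assembly factor gene ppan (FBgn0010770, 3R 21116254 to 21117899, plus strand) was at 49.6, 35.8, 38.0 and 43.8 CPM in wt 1 to wt 4 and 41.2, 49.7, 40.2 and 47.7 CPM in CRISPR 1 through CRISPR 4. It was highest in CRISPR 2, a little above wt 1, and shares exonic sequence with Bdbt on the opposite strand (898 to 1453 reads).

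Levels of different genes were compared per kb of median annotated transcript length. Nop60B (211 ± 33.2), Fib (196 ± 21.3) and Nop56 (193 ± 35.6 CPM per kb, SD, n = 8) were the highest, with overlapping spreads. Within the same library Nop60B lay above Fib in 7 of 8 and Fib above Nop56 in 5 of 8. Nopp140 followed at 113 ± 21.5 CPM per kb and lay below Nop56 in 8 of 8 libraries. Ns1 (72.6 ± 12.6), Tif-IA (70.0 ± 11.8), pit (65.6 ± 10.7) and Myc (62.4 ± 6.86) formed a middle level with overlapping spreads. Ns1 lay above Tif-IA in 7 of 8 libraries, Tif-IA above pit in 6 of 8 and pit above Myc in 5 of 8. The lowest levels per kb were those of Polr1A (35.8 ± 9.87) and ppan (29.3 ± 3.60), and Myc lay above Polr1A in 8 of 8 libraries. These spreads hold differences between libraries of both genotypes.

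**Figure D1:**
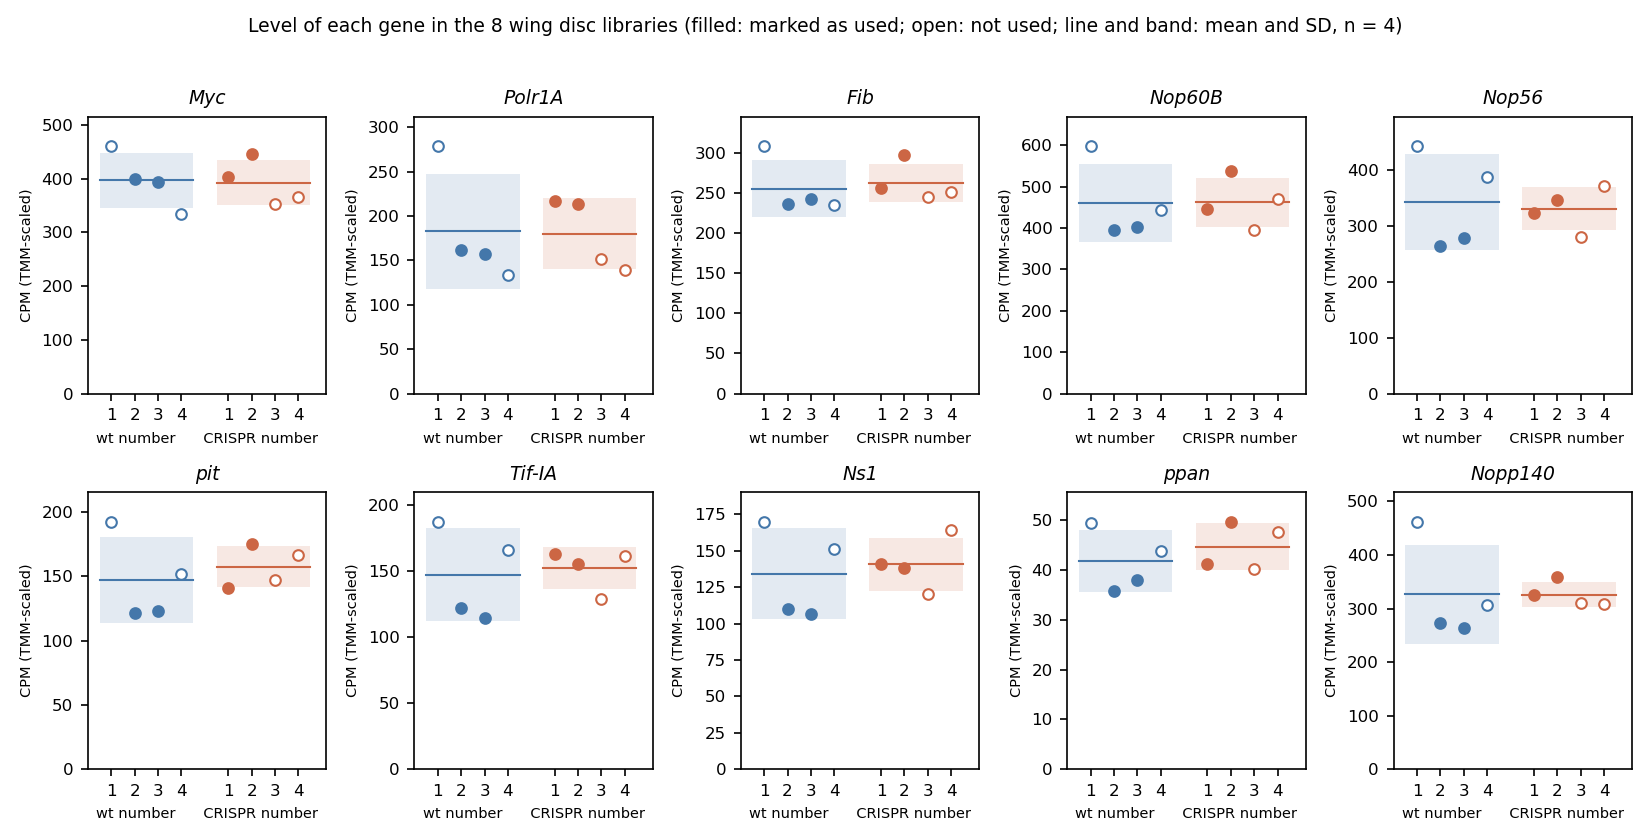
CPM (TMM-scaled, linear axes from 0) of each gene in the 4 wt and 4 CRISPR libraries, by library number. Filled points are libraries marked as used and open points those not used, with the line and band giving the mean and SD of 4 libraries. In 9 of 10 panels wt 1 is the highest point, and the bands of both genotypes overlap in every panel.

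The library wt 1 held the highest level of 9 of the 10 genes, all but ppan, while 16.6% of all tested genes were highest there. No library other than wt 1 and CRISPR 2 held the highest level of any of them. The lowest level fell in wt 2 for 3 genes, in wt 3 for 3, in wt 4 for 3 and in CRISPR 3 for 1. The mean log2 CPM of the 10 genes was 0.37 above its 8-library mean in wt 1 and 0.16 above it in CRISPR 2, and 0.21 below it in both wt 2 and wt 3. Within wt alone the level of Polr1A thus ran from 133 to 278 CPM, a wider range than the 139.7 to 217 CPM of CRISPR. The median SD of log2 CPM over the 8 libraries was 0.24 for the 10 genes and 0.23 for all tested genes.

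The first comparison asked whether the genes differed between genotypes over all 8 libraries. None of the 10 passed the edgeR quasi-likelihood test at an adjusted p under 0.05 (0.184% of 9255 genes did), and none had an unadjusted p under 0.05 (4.30% of genes did). The log2 changes from wt to CRISPR ran from -0.05 (Nop56) to 0.10 (pit), and their median of 0.02 was also that of all tested genes, 0.02. The 95% intervals were -0.31 to 0.27 for Myc, -0.58 to 0.54 for Polr1A and -0.26 to 0.46 for pit, so differences of that size were not detectable with these libraries. DESeq2 called 78 genes (0.843%) and limma-voom 12 (0.130%), with 0 of the 10 genes in either.

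Single libraries decided the sign of several of these values. Without wt 1, all 10 log2 changes lay above 0, with a median of 0.16 (all tested genes 0.008), and Polr1A went from -0.02 to 0.23. Without wt 2, 3 of the 10 lay above 0 with a median of -0.03, and without wt 3, 3 with -0.04 (all genes 0.01 in both). Without wt 2, wt 3 and CRISPR 3, the libraries with gut transcripts, 1 of the 10 lay above 0 and the median was -0.11 (all genes 0.008). Without CRISPR 3 alone all 10 lay above 0, with a median of 0.08 (all genes 0.03). None of the 10 genes was called by edgeR in any of these fits.

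Among the 4 used libraries, the second comparison, all 10 genes were higher in CRISPR and 1 passed the test. Polr1A rose from 159.7 ± 3.24 to 215 ± 2.12 CPM (n = 2 each), a log2 change of 0.39 (SE 0.055) with an edgeR adjusted p of 0.0483, where 0.381% of 9711 genes were called higher and 2.72% in either direction. Tif-IA, with 118 ± 5.38 and 159 ± 5.17 CPM, gave a log2 difference of 0.39 (SE 0.061, edgeR adjusted p = 0.0597). Ns1, with 108 ± 2.52 and 139 ± 1.76 CPM, had 0.33 (SE 0.055, adjusted p = 0.0679). Neither passed, and Nop56 (0.27) and Nopp140 (0.31) were the other genes with an unadjusted p under 0.05, which 9.11% of all genes had on the higher side.

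Of the other genes, pit had a log2 change of 0.34, ppan 0.27, Nop60B 0.26, Fib 0.17 and Myc 0.06, with edgeR adjusted p-values from 0.234 to 0.729. The 95% interval for Myc ran from -0.18 to 0.30. The median of the 10 log2 changes was 0.29, against 0.004 for all tested genes. For all 10 genes both CRISPR libraries lay above both wt libraries, as they did for 34.3% of tested genes. Levels here use TMM factors of the 8 libraries and the log2 changes those of the 4, so the ratio of the means can differ slightly from the fitted change.

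The call on Polr1A was lost when either used wt library was left out, while its log2 change stayed close to 0.39. Without wt 2 the log2 change was 0.41 with an edgeR adjusted p of 0.722, and without wt 3 it was 0.37 with an adjusted p of 0.830. Each of these fits had 1 wt library, assumed to vary like the CRISPR libraries, and 0 of the 10 genes were called in either. With the spread estimated over all 8 libraries the log2 change of Polr1A was 0.45 and its adjusted p 0.696. DESeq2 called 4 of the 10, Polr1A, Tif-IA, Ns1 and Nopp140, where it called 2.37% of genes higher in CRISPR. Without CRISPR 1 all 10 were called, and without CRISPR 2 there were 7, but edgeR then called 5056 and 5759 genes in all, with the spread then taken from wt 2 and wt 3 alone.

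Both used wt libraries held the gut transcripts and neither used CRISPR library did. The 10 gut enzyme genes summed to 1992 and 2008 CPM in wt 2 and wt 3 and to 2.06 and 7.90 CPM in CRISPR 1 and CRISPR 2. Of those 10 genes, 6 had reads in each of wt 2 and wt 3 and 7 in each of CRISPR 1 and CRISPR 2, where Jon65Aiv, the highest, had 39 and 183 reads against 63106 in wt 2. The 10 fat body genes summed to 568 and 581 CPM in wt 2 and wt 3 and to 32.1 and 72.7 CPM in CRISPR 1 and CRISPR 2. Their part in the difference of the nucleolar genes was not tested. In such bulk samples fewer cells of a type and less RNA per cell cannot be told apart.

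An interaction term asked whether the genotype difference itself differed between the used and the not-used libraries. In the 8-library fit, the log2 difference of Polr1A was 0.43 among the used and -0.50 among the not-used libraries, and that of Tif-IA was 0.43 and -0.28. For all 10 genes the used value lay above 0 and the not-used value below 0, from -0.09 (ppan) to -0.50 (Polr1A). The share of all tested genes with this split was not computed. With 8-library changes near 0 (median 0.02), a used value above 0 goes with a not-used value below 0. The mean of the 10 genes was lowest in the used wt 2 and wt 3, 0.21 below its 8-library mean. It was highest in the not-used wt 1, 0.37 above, so the split restates the same spread between libraries. By edgeR, 0 of 9255 genes and so none of the 10 passed an adjusted p under 0.05 for the interaction, with 611 genes at an unadjusted p under 0.05. Tif-IA (interaction -0.71, SE 0.22, edgeR adjusted p = 0.693) and Nop56 (-0.65, SE 0.24, edgeR adjusted p = 0.713) were the 2 of the 10 among those 611. DESeq2 called 86 genes (0.929%) for the interaction, with 0 of the 10.

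Same-numbered libraries gave the sharpest split. In number 1 all 10 genes were lower in CRISPR (46.4% of all genes were lower and 53.6% higher), with a median log2 difference of -0.32, and 5 of them (Nopp140, Nop56, pit, Nop60B and Polr1A) were at least 1.25-fold lower, as 13.7% of all genes were. Nopp140 was the lowest of them, at -0.50. In number 2 all 10 were higher in CRISPR (53.0% of all genes were higher and 47.0% lower), with a median of 0.39, and 9 of them, all but Myc, were at least 1.25-fold higher, as 10.4% of all genes were. The largest of these was pit at 0.53, and Myc stood at 0.16. The same genes thus lay on opposite sides of 0 in numbers 1 and 2, while the median of all tested genes was 0.02 in both. Number 2 was a loose pair, since deviations of wt 2 correlated at 0.11 with CRISPR 2 and at 0.46 with CRISPR 3. The gut enzyme genes summed to 1992 CPM in wt 2 and 7.90 CPM in CRISPR 2, and to 0.60 and 2.06 CPM in wt 1 and CRISPR 1. The part of gut tissue in these differences was not tested.

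In numbers 3 and 4 the differences were small. Number 3 had 7 genes higher and 3 lower in CRISPR (54.9% and 45.1% of all genes), from -0.16 (Myc) to 0.26 (pit), with a median of 0.05. Number 4 had 8 higher and 2 lower (50.2% and 49.8% of all genes), from -0.06 (Nop56) to 0.14 (pit), with a median of 0.09. None of the 10 reached 1.25-fold in either number, where 10.4% of all genes in number 3 and 6.15% in number 4 were that much higher, and 15.1% and 9.64% that much lower. When counts were scaled to total gene reads, 5 genes lay above 0 in number 3 and 7 in number 4, so the side of the smallest differences depends on the scaling.

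No gene lay on one side in all 4 numbers. Fib, pit, Ns1, ppan and Nopp140 were higher in CRISPR in 3 of the 4, and the other 5 in 2 of the 4. The mean difference over the 4 numbers was 0.12 ± 0.41 for pit and -0.015 ± 0.19 for Myc (SD, n = 4 numbers). With the library number added to the edgeR model as a block, 14 genes were called and none of the 10 (0.151% of genes), with adjusted p-values from 0.840 (Ns1) to 0.981 (Polr1A). Its log2 change for pit was 0.12 (SE 0.15).

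**Figure D2:**
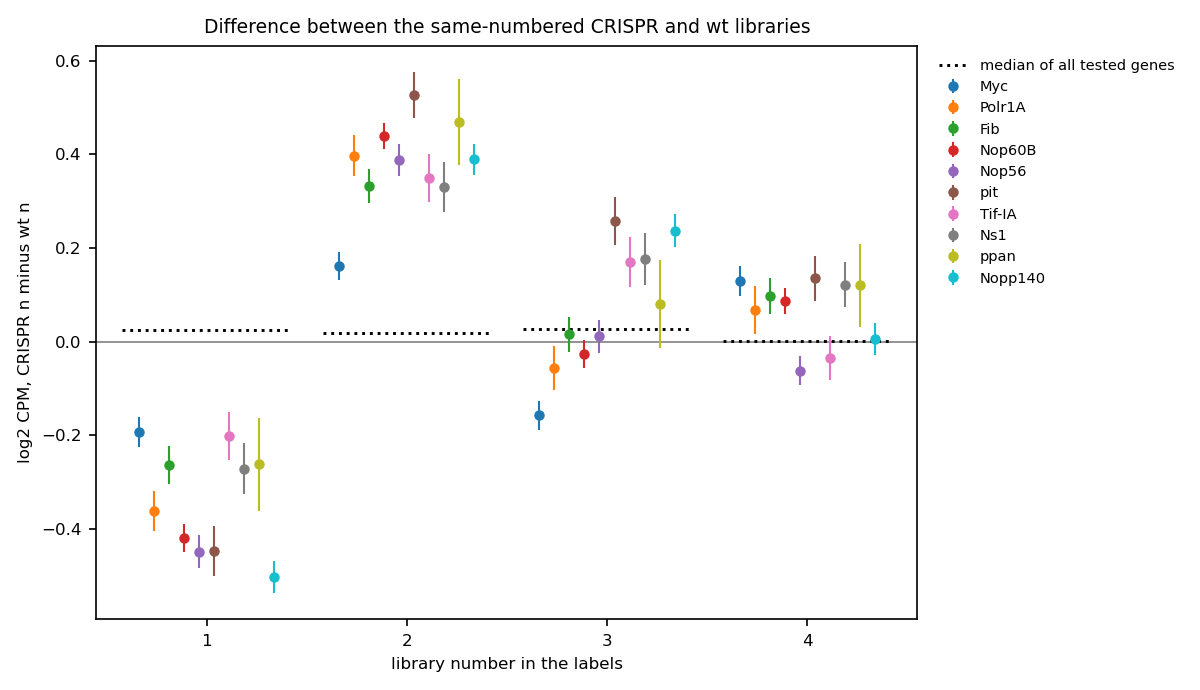
Difference in log2 CPM between the CRISPR and the wt library of the same number (vertical axis) for each gene, by number (horizontal axis). Bars are 95% counting intervals, which cover counting error only, and dotted lines give the median of all tested genes. All 10 points lie below 0 in number 1 and above 0 in number 2, and they lie on both sides of 0 in numbers 3 and 4.

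The 10 genes varied together over the 8 libraries, but not all to the same degree. Over the 45 pairs the median Pearson r of log2 CPM was 0.80, from 0.12 (Myc and Ns1) to 0.96 (pit and ppan), and all 45 lay above 0. In 23 pairs r was at least 0.8. Of all other tested genes, 2.66% (with Nop60B) to 9.28% (with Polr1A) reached 0.8 with a given gene of the 10. Between 47.8% (with Myc) and 51.9% (with Nopp140) of them lay above 0. The 9 pairs with Myc had a median of 0.37 and the 36 pairs without Myc one of 0.82. Nop56, Tif-IA and Ns1 had r of 0.94 to 0.96 among themselves. Nop60B had 0.90 with pit, 0.89 with ppan, 0.91 with Nopp140 and 0.93 with Fib. Myc had 0.90 with Polr1A and 0.84 with Fib, and Fib had 0.90 with Nopp140, so values this high were found across the roles of the genes.

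The library wt 1 carried part of this co-variation. Without it the median r of the 45 pairs was 0.72 and 5 pairs lay below 0, the lowest again Myc and Ns1 at -0.26. The median of the pairs with Myc was then 0.11 and that of the pairs without Myc 0.74. Without wt 4 and CRISPR 4 the median was 0.91, the lowest pair stood at 0.67, and the pairs with Myc had a median of 0.75. With wt 2 and wt 3 averaged as 1 point it was 0.78, and with counts scaled to total gene reads it was 0.68. These pairs share the same 8 libraries and their scaling, so the 45 values are not independent.

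**Figure D3:**
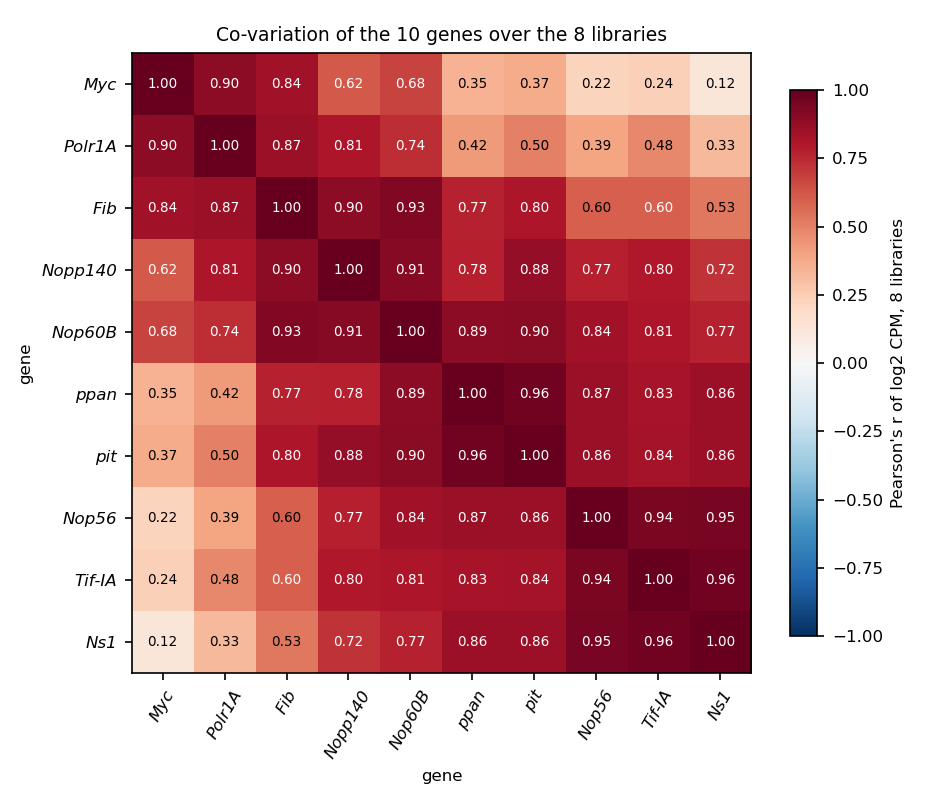
Pearson's r of log2 CPM over the 8 libraries for each pair of genes, with both axes listing the 10 genes and the colour scale running from -1 to 1. The values within Nop56, Tif-IA and Ns1 lie at 0.94 to 0.96, and those of Myc with the same 3 genes at 0.12 to 0.24.

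Each gene's co-variation with Myc was set against that of all 9254 other tested genes, with two-sided exact permutation p-values over all 40320 pairings of 8 libraries. These pairings treat the libraries as independent. However, wt 2 and wt 3 were nearly alike (robust SD of log2 ratios 0.056), and wt 4 and CRISPR 4 were the next closest (0.142). The p-values and numbers of genes passing below may therefore overstate the evidence. By Pearson's r, 53 genes passed an adjusted p under 0.05 (0.573%), and none of the 9 nucleolar genes was among them. Polr1A came nearest, with r = 0.90 (exact permutation p = 0.00117, adjusted p = 0.0551) and rho = 0.95 (p = 0.00114, adjusted p = 0.0625). It ranked 140 of 9254 by r. Adjusted instead over the 9254 genes tested against Polr1A, the same pair passed, with an exact permutation adjusted p of 0.0310 for r and 0.0303 for rho. With Polr1A, 644 genes passed by r (6.96%) and 911 by rho (9.84%), so the pair's call depends on which of its genes the adjustment runs over. Fib followed with r = 0.84 and rho = 0.79 (exact permutation p = 0.00982 and 0.0279, adjusted p = 0.104 and 0.153).

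Nop60B had r = 0.68 and rho = 0.64 with Myc (exact permutation p = 0.0636 and 0.0962, adjusted p = 0.219 and 0.295), and Nopp140 had r = 0.62 and rho = 0.62 (exact permutation p = 0.09998 and 0.115, adjusted p = 0.269 and 0.324). The other 5 genes had r from 0.12 (Ns1) to 0.37 (pit) and rho from 0.12 (Nop56) to 0.38 (ppan), with exact permutation p-values of r from 0.357 to 0.764, and 42.5% of all tested genes had an r with Myc at least as high as that of Ns1. Leaving out wt 1 and wt 4, the 2 libraries farthest from the median of Myc, gave r = 0.80 for Polr1A, 0.70 for Fib, 0.61 for Nop60B and -0.03 for Ns1. Removing each genotype's mean first left 0.90 for Polr1A and 0.86 for Fib. With counts scaled to total gene reads r was 0.63 for Polr1A and 0.74 for Fib, and it lay below 0 for Nop56, Tif-IA and Ns1.

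Without the number 4 libraries, r with Myc was 0.67 to 0.90 for all 9 nucleolar genes, Nop56 at 0.81 and Ns1 at 0.70 among them. In wt 4 and CRISPR 4, Myc was 0.23 and 0.10 below its own 8-library mean of log2 CPM, and Polr1A 0.40 and 0.33 below. Nop56 was 0.22 and 0.16 above its mean there, Tif-IA 0.17 and 0.13 above, and Ns1 0.15 and 0.28 above. Fib, at 0.13 and 0.04 below its mean, and Nopp140, at 0.07 and 0.06 below, were lower there too, and Nop60B stood 0.04 below in wt 4 and 0.04 above in CRISPR 4. In wt 2 and wt 3 Myc was 0.02 and 0.006 above its mean, where the other 9 genes were 0.09 to 0.37 below theirs.

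Transcript length moved with the levels in the number 4 libraries. Myc (median annotated transcript 6.33 kb) and Polr1A (5.08 kb) are the longest of the 10, and the others run from 1.32 kb (Fib) to 2.89 kb (Nopp140). Across 9057 genes, Spearman's rho between length and the deviation from the 8-library mean was -0.41 in wt 4 and -0.50 in CRISPR 4, and 0.03 to 0.31 in the other 6 libraries. Genes are not independent replicates, so these are given as a description. The 741 genes over 5 kb had a median deviation of -0.36 in wt 4 and -0.56 in CRISPR 4, below Myc in both libraries, and Polr1A was below that median in wt 4 but not in CRISPR 4. In wt 1, by contrast, all 10 genes lay above their means, from 0.20 (ppan) to 0.66 (Polr1A), where the median of the genes over 5 kb was 0.27. The part of length in the co-variation of Myc and Polr1A was not tested.

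**Figure D4:**
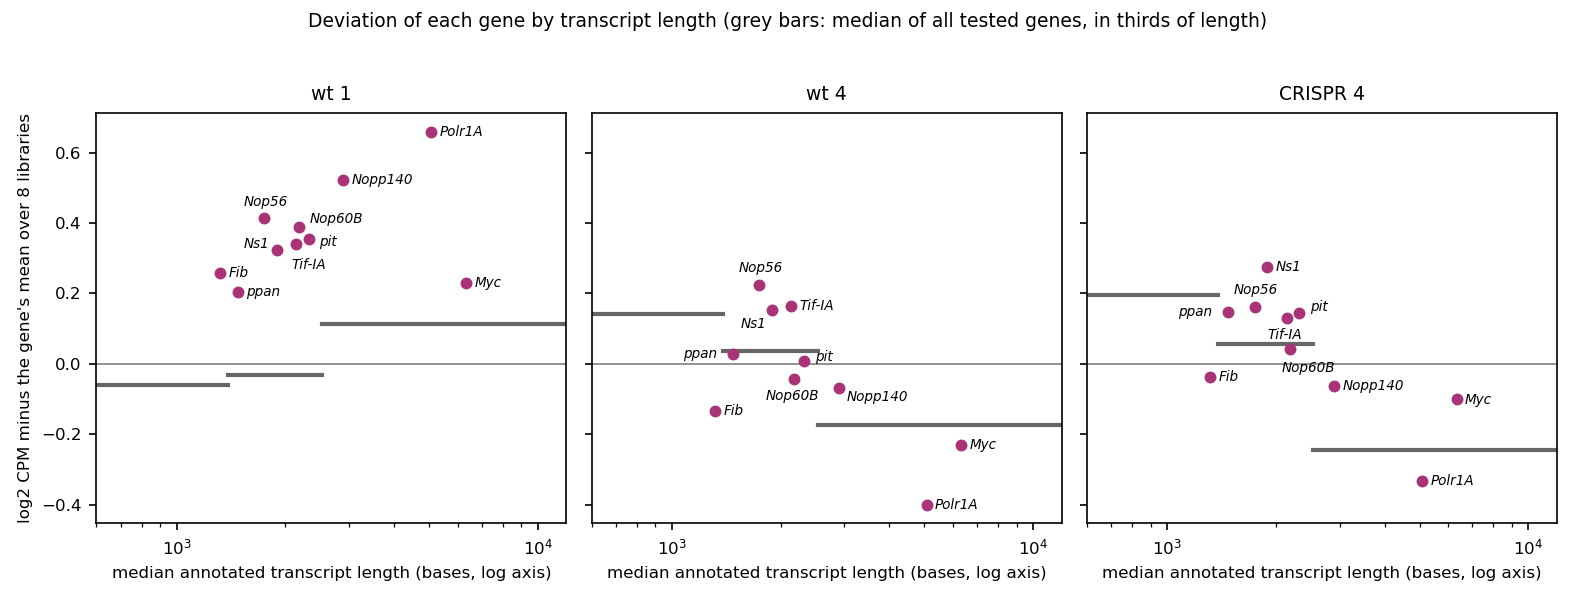
Log2 CPM of each gene minus its mean over the 8 libraries (vertical axis) against median annotated transcript length (horizontal axis, logarithmic) in wt 1, wt 4 and CRISPR 4. Grey bars give the median of all tested genes in 3 length classes of equal size. Myc and Polr1A, on the right, lie above 0 in wt 1 and below 0 in wt 4 and CRISPR 4, where the class of longest genes also lies below 0.

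Markers of developmental stage differed between the libraries as well. The stage genes did not all order the libraries alike. Hr4, an ecdysone-inducible nuclear receptor gene, was at 2.52 CPM in wt 1, 12.4 CPM in both CRISPR 1 and CRISPR 2, 39.3 and 39.2 CPM in wt 2 and wt 3, and 133, 174 and 142 CPM in wt 4, CRISPR 3 and CRISPR 4. EcR, the ecdysone receptor gene, went the other way, at 311, 327 and 317 CPM in wt 1, CRISPR 1 and CRISPR 2, 225 and 212 CPM in wt 2 and wt 3, and 174, 164 and 168 CPM in wt 4, CRISPR 3 and CRISPR 4. So did Eip74EF, an early ecdysone-response gene, with 162 to 183 CPM in wt 1, wt 2, wt 3, CRISPR 1 and CRISPR 2 and 99.8 to 125 CPM in the other 3 libraries. Eip75B, also on the stage list, followed neither order, at 271.1 to 300.9 CPM in wt and 332.3 to 435.8 CPM in CRISPR. The share of all tested genes whose wt and CRISPR libraries do not overlap was not computed, so no genotype effect is read from these ranges. Over all 8 libraries edgeR called 0 of the 14 stage genes between genotypes and DESeq2 called 1. Among the used libraries edgeR called 1 of the 14 higher in CRISPR and 1 lower (2.72% of all genes in either direction). DESeq2 called 9 of the 14 there, 3 of them higher, against 781 of all 9711 tested genes. The median log2 change of the stage genes was then -0.31, against 0.004 for all tested genes. All 14 matched stage genes were detected in each library, and their sum was lowest in wt 1 (1473 CPM) and next lowest in CRISPR 2 (1928 CPM), the libraries in which the nucleolar genes were highest. It was highest in CRISPR 3 (6384 CPM), where they were low, and in CRISPR 4 (6280.4 CPM), where their mean was 0.04 above the 8-library mean. In wt 2 and wt 3, where the mean of the 10 genes was lowest, the stage sum was 2897 and 2892 CPM. It was 2304 CPM in CRISPR 1 and 5586 CPM in wt 4, where that mean was 0.03 above and 0.03 below. The stage sum thus did not order the libraries as the 10 genes did. The 9 larval muscle genes summed to 1263 CPM in CRISPR 2 and to 123 to 411 CPM elsewhere. The part of stage and of muscle tissue in the levels of the 10 genes was not tested.

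Outside the 10, the genes most like them were found by correlation with their mean standardised profile over the 8 libraries, among 5680 genes with an average log2 CPM of at least 4. Among the most similar were Mybbp1A (r = 0.988), Noc2 (0.985), CG8545 (0.985), mEFTu1 (0.982), Mys45A (0.977), CG5033 (0.9754), CG13097 (0.974), mbm (0.972) and CG8939 (0.970). Noc2, CG8545, Mys45A and CG5033 are on the list of large subunit assembly genes and mbm on that of the small subunit, while mEFTu1 encodes a mitochondrial translation elongation factor. Mybbp1A was at 130, 72.2, 71.7 and 91.1 CPM in wt 1 to wt 4 and 94.4, 106, 82.3 and 92.2 CPM in CRISPR 1 through CRISPR 4, the same high wt 1 and low wt 2 and wt 3 as in Nopp140. The most opposite were TrpRS-m (-0.967), pnr (-0.965) and Rnb (-0.964), of which pnr, a GATA factor of the dorsal notum, was lowest in wt 1 at 34.2 CPM and highest in wt 2 at 49.8 CPM.

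By list, 10 of 26 large subunit assembly genes had r of at least 0.9 to this profile, as had 4 of 30 small subunit processome genes and 1 of 9 other snoRNP genes. Among all 5680 candidates 89 did (1.57%). None of 13 other RNA polymerase I genes did, with a median r of 0.50, nor any of 75 cytoplasmic ribosomal protein genes (median 0.46), whereas 1 of 23 cell cycle genes did (median 0.69). Among 15 partners and regulators of Myc none reached 0.9 and the median was 0.23.

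The wider machinery was then compared between genotypes. Over all 8 libraries edgeR called none of 15 other polymerase I genes (5 of them subunits that polymerases II and III share), 10 snoRNP genes, 26 large subunit genes, 30 small subunit genes and 16 partners and regulators of Myc, and DESeq2 called none either. Of all these genes 1 had an unadjusted p under 0.05, vito (log2 0.22, SE 0.090, 25.4 ± 1.09 CPM in wt, 29.6 ± 1.82 CPM in the CRISPR libraries). The list medians of the log2 change ran from -0.007 (Myc partners) to 0.12 (polymerase I), against 0.02 for all genes. Above 0 were 14 of 15 polymerase I genes, 23 of 26 large subunit genes and 27 of 30 small subunit genes. The same held for 7 of 10 snoRNP genes and 7 of 16 Myc partners, and for 5297 of all 9255 tested genes. Max, the partner of Myc, had means of 49.4 ± 6.49 CPM (wt) and 49.3 ± 10.01 CPM (CRISPR, n = 4 each), Mnt had 92.5 ± 20.1 and 105 ± 10.8 CPM, and neither passed the test.

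Among the used libraries 2 genes of these lists rose. Polr1E, a polymerase I subunit gene, went from 34.7 ± 0.595 to 50.4 ± 0.0350 CPM (log2 0.50, SE 0.068, edgeR adjusted p = 0.0442), and CG4554, on the small subunit list, from 102 ± 0.370 to 138 ± 3.29 CPM (log2 0.39, SE 0.052, adjusted p = 0.0421, n = 2 each). Both calls were lost without wt 2 and without wt 3, where edgeR called 39 and 42 genes, all of them lower in CRISPR. That made 1 of 15 polymerase I genes, 1 of 30 small subunit genes and none of the 10 snoRNP, 26 large subunit and 16 Myc partner genes. All 26 large subunit genes and all 30 small subunit genes were above 0, with medians of 0.27 each, and 20 and 17 of them had an unadjusted p under 0.05. Among all 9711 tested genes 4925 were above 0, and 9.11% were higher with an unadjusted p under 0.05. DESeq2 called 2 of the polymerase I genes, 1 of the snoRNP genes, 9 of the large subunit genes and 8 of the small subunit genes, all higher in CRISPR (2.37% of all genes), and none of the Myc partners. CG13185, on the large subunit list, had the largest of these values (177 ± 4.50 and 269 ± 40.5 CPM, log2 0.57) with an adjusted p of 0.0739.

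The median log2 change of the 10 genes among the used libraries, 0.29, lay close to the 0.27 of the large subunit genes and the 0.27 of the small subunit genes. It was 0.21 for 23 cell cycle genes, of which edgeR called none, DESeq2 called 9, all higher in CRISPR, and limma-voom called 2, with 13 at an unadjusted edgeR p under 0.05. Of all 9711 tested genes DESeq2 called 2.37% higher in CRISPR and limma-voom called 398 in either direction. An unadjusted edgeR p under 0.05 was found for 2171 of them. The median was 0.11 for 77 cytoplasmic ribosomal protein genes, of which edgeR, DESeq2 and limma-voom called none, with 1 at an unadjusted edgeR p under 0.05. With 8 libraries these medians came to 0.02 for the 10 genes, 0.05 for the cell cycle genes and 0.05 for the ribosomal protein genes. The mean log2 CPM of the ribosomal protein genes stayed within -0.14 to 0.17 of its 8-library mean and was highest in CRISPR 4, whereas that of the 10 genes ranged from -0.21 to 0.37 and was highest in wt 1. That difference between the groups was not tested.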

How the data were processed

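RNA-seq was made from whole wing discs, 4 libraries per genotype. Each library came with 1 table of raw gene counts, as the authors deposited it. Per the submitters' processing notes, FastQC, Trimmomatic 0.36, STAR and DESeq2 were used with build dm6. For the counting program and its strand setting, the sources used here name neither, so genes that overlap on either strand are uncertain. Rows that name no gene (no feature 0.955% to 1.91%, ambiguous 3.07% to 3.44%, not unique 2.22% to 4.40% of all reads) stayed out of library sizes and tests.

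The main tool was edgeR 4.0.16 (R 4.3.3) on the counts (TMM, filterByExpr with minimum count 10 and minimum total 15, two-sided quasi-likelihood test, Benjamini-Hochberg over all tested genes, called under 0.05), over all 8 libraries and over the 4 used ones. DESeq2 1.42.0 and limma 3.58.1 (voom) were alternatives, and the fits were tested on simulated data. Levels are CPM, with 0.5 added before log2, and correlations used exact permutations. Within a number there is 1 library a side and no test, and the 1.25-fold rule is a description. Intervals within a number cover counting error only. Depth was 35076546 to 47980221 gene reads.

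The 10 genes and all lists were chosen with earlier results of these data known, so no list was tested. Of 329 list entries 317 matched a gene ID, and hoip, Nop16, Mpp10, Trrap, br, ap, wg, wupA, para, btl, Mcm3 and Orc1 are not analysed here. After values had been seen, CG8241, Pcf11 and CG10214 were dropped and mbm was moved to the small subunit list, because of what they encode. Named genes outside the 10 are Max, Mnt, called list genes, those of smallest p per list, the 10 most similar and the 3 most opposite profiles, and the markers and overlapping genes that touch a result. Of the genes this rule names, 1 is not reported here. Transcript lengths, positions and overlaps come from Ensembl release 115 (BDGP6, the dm6 assembly). Numbers in the labels were not said to mark shared batches. Deviations from the genotype means correlated between same-numbered libraries at 0.46, 0.11, 0.46 and 0.80 for numbers 1 to 4, so by a rule that asks for over 0.1 in every pair they were treated as paired, although wt 2 correlated more with CRISPR 3 (0.46).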

Additional observations from a re-analysis of the deposited data

Results flagged for a closer look

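Fib was at 308 CPM in wt 1, far from the 234 to 242 CPM of wt 2 to wt 4, and by Dixon's criterion for 4 values this library stood apart from the other wt libraries. Of 20 groups checked (10 genes in 2 genotypes) this was the 1 that stood out, and chance gives about 1 in 20. The library was highest for 9 of the 10 genes, as the plot of levels by library shows.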

How the results depend on the processing

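Over all 8 libraries none of the 10 genes was called under any alternative run, and the number of all genes called was 78 with DESeq2, 1 to 26 with 1 library left out, 0 without wt 4 and CRISPR 4 and 0 without wt 2, wt 3 and CRISPR 3, against 17. The replicate block, with the libraries paired by number, gave 14 genes, and its values were 0.012 for Polr1A and 0.033 for Nopp140 on the other side of 0, with no call of the 10 changed. The small log2 changes often crossed 0, in 37 alternative values against 113 that stayed on the same side. Nop60B stood at -0.0039 with both RLE factors and DESeq2 and at -0.039 without number 4, and limma-voom gave 0.014 for Polr1A and 0.032 for Nopp140. Without wt 2, wt 3 and CRISPR 3 the values were 0.028 for Myc, -0.016 for Fib, -0.10 for Nop60B, -0.095 for pit, -0.14 for Tif-IA, -0.12 for Ns1 and -0.014 for ppan. With 1 library left out they ran from -0.10 to 0.033 for Myc, -0.16 to 0.23 for Polr1A, -0.022 to 0.12 for Fib, -0.069 to 0.13 for Nop60B, -0.16 to 0.065 for Nop56, -0.058 to 0.16 for Tif-IA, -0.042 to 0.18 for Ns1 and -0.093 to 0.19 for Nopp140.

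Among the used libraries 264 genes and 1 of the 10 were called. DESeq2 called 781 and 4, limma-voom 398 genes, no filter on low counts 400 and 2 (Polr1A and Tif-IA), and the spread over 8 libraries 5 and 0. With 1 library left out the counts were 39 to 5759 genes and 0 to 10 of the 10, and Myc ran from -0.036 to 0.16. The interaction was called for 86 genes by DESeq2. No gene passed for Spearman's rho with Myc (0 at adjusted p, 2156 at an unadjusted p under 0.05). Scaling to total gene reads turned r with Myc to -0.11 for Nop56, -0.21 for Tif-IA and -0.27 for Ns1, and leaving out the 2 farthest libraries turned Ns1 to -0.030. The causes were not tested. All 80 alternative within-number values moved by less than the SD of that gene's 4 differences (0.19 for Myc to 0.41 for pit). That bound is wide for a change of scaling. With RLE factors and with total gene reads, Fib (0.015) and Nop56 (0.011) in number 3 and Nopp140 (0.006) in number 4 went below 0. The search of promoters for Myc motifs was not run.

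With 4 libraries a group, differences within the intervals above could not be detected. Each of the 10 genes had 1320 or more reads in every library.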
